A study of Rattus norvegicus with 36 samples.

Results

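MicroRNAs of the descending thoracic aorta were compared between S2Bb and S2Ba rats that had eaten a high-salt diet. Both strains are congenics of the Dahl salt-sensitive (SS) rat, an inbred strain whose blood pressure climbs on a salty diet, and both carry a stretch of chromosome 2 from the Brown Norway (BN) rat. S2Bb holds the middle segment and S2Ba the distal portion, so all rats compared share the SS background and no group is free of it. The sources used here do not give the limits of the segments. Males entered the study at 4 to 6 weeks of age and were kept on normal salt (NSD) or on high salt (HSD, 4% NaCl) until they were 12 to 13 weeks old. The comparison took the libraries that the deposited table lists under S2Bb on high salt, 6 in number, and those under S2Ba on high salt, 5 in number, which is 11 of the 32 libraries analysed and of the 36 samples in the labels. S2Ba on high salt replicate 2 was not analysed here. The same strain comparison on normal salt, with 5 S2Ba and 6 S2Bb libraries of other animals, is given beside it. Replicate numbers follow the order of the samples and pair nothing. The labels describe 1 RNA preparation per sample, and whether any rats shared a litter or a cage is not stated.

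A microRNA is a short RNA that, loaded into an Argonaute protein, lowers the stability and translation of messenger RNAs that pair with its seed, bases 2 to 8 counted from the 5′ end. A hairpin precursor gives a 5p and a 3p strand, of which usually one accumulates and the other, the passenger strand, is largely degraded. In the arterial wall miR-143 and miR-145, made from one transcript, are known for holding smooth muscle cells in the contractile state, miR-126 marks endothelium, miR-451 and miR-144 mark red blood cells, and miR-142 marks blood-derived cells. Levels are given as the authors' normalized reads per M reads (nRPM, M for mega), and differences as S2Bb minus S2Ba in mean log2(nRPM + 1), a scale that understates differences of rare microRNAs. A difference was called when its Benjamini-Hochberg adjusted p in limma, over the 484 names tested, was under 0.05. Names of the form miR-n with a number are the authors', and the sources used here do not define them.

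The smooth muscle strand miR-143-3p took on average 54.1% of a library's signal in S2Ba (45.5% to 58.4%) and 56.5% in S2Bb (54.5% to 58.3%). The lowest S2Ba share was that of replicate 1. MiR-10b-5p and miR-10a-5p, encoded within Hox clusters, came next. The skeletal and heart muscle microRNAs miR-1-3p, miR-206-3p, miR-208a-3p and miR-208b-3p stayed under 1 nRPM in all 11 libraries, as did miR-122-5p of liver, miR-124-3p of neurons and miR-200c-3p of epithelium. Other members of those lists were present. Over the 11 libraries the striated muscle list summed to 446 to 758 nRPM, led by miR-133a-3p, the liver list to 336 to 532 nRPM, led by miR-192-5p, the neuron list to 51.3 to 128 nRPM and the epithelial list to 39.7 to 60.4 nRPM. Whether cells of those tissues lay in the aorta pieces was not tested. Recovered depth was 12.2 to 22.3 M reads per library in S2Ba and 17.3 to 23.6 M reads in S2Bb. S2Ba replicate 3 stood apart for red blood cell microRNAs, whose summed level was 92.0 nRPM there and 7.83 to 21.7 nRPM in the other S2Ba libraries. S2Bb replicate 1 was the highest of its group with 14.7 nRPM, against 2.61 to 4.81 nRPM in the other 5. The tissue was a piece of whole aorta, in which fewer cells of a type and less RNA per cell cannot be told apart.

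The microRNAs that the comparison turns on are the 20 with the smallest p whose mean level reached 10 nRPM. RefSeq (GRCr8) gave a mature sequence for 16 of them. Those below carry the patterns described further on, and capitals mark the seed. Of these, miR-23a-3p and miR-23b-3p, miR-24-1-5p and miR-24-2-5p, and miR-181c-5p and miR-181d-5p form pairs with a shared seed.
miR-872-3p: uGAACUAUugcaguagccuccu
miR-194-5p: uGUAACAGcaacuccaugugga
miR-30c-5p: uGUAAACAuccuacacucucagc
miR-23a-3p: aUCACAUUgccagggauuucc
miR-23b-3p: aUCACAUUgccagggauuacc
miR-24-1-5p: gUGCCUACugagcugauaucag
miR-24-2-5p: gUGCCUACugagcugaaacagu
miR-145-5p: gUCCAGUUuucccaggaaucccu
miR-210-3p: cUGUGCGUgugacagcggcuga
miR-451-5p: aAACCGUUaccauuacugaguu
miR-100-5p: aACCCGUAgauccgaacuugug
miR-181c-5p: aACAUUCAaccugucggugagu
miR-181d-5p: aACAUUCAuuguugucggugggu
miR-142-5p: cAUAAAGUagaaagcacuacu

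MiR-23a-3p and miR-23b-3p differ at 1 of 21 bases, U19A, counted from the 5′ end with the base of miR-23a-3p first. MiR-24-1-5p and miR-24-2-5p differ by U17A, U19C, C20A, A21G and G22U, with the base of miR-24-1-5p first. MiR-23a-3p (chr19:40859778-40859798, minus strand), miR-27a-3p (chr19:40859614-40859634) and miR-24-2-5p (chr19:40859517-40859538) lie in one cluster in GRCr8, and miR-23b-3p, miR-27b-3p and miR-24-1-5p come from the paralogous cluster on chromosome 17. MiR-181c-5p (chr19:40888314-40888335) and miR-181d-5p (chr19:40888484-40888506) lie on the plus strand of the same stretch of chromosome 19. Of the leading microRNAs with a RefSeq position, 0 lie on chromosome 2.

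No difference between S2Bb and S2Ba on high salt passed the threshold. Limma called 0 of 484 (0%), and the smallest adjusted p was 0.233. At an unadjusted p under 0.05 there were 44 names (9.09%), of which 15 were higher (3.1%) and 29 lower (5.99%) in S2Bb. Among the 20 leading microRNAs 13 were lower and 7 higher in S2Bb, while of all names 47.7% had a negative difference of any size. They had adjusted p of 0.233 to 0.436 in limma. The median difference over all 484 names was 0.02, and the 95% interval of a single difference reached 0.46 (median of the half-widths) to either side. The count of 0 changed with the fit. It became 1 without SS on high salt replicate 2, a library outside the comparison with 2.31 M reads that enters through the shared variance, 9 with the fit limited to the 11 compared libraries, 8 with DESeq2 and 32 with limma-voom and sample weights, while edgeR on recovered reads also called 0, with 52 names at an unadjusted p under 0.05. The value called without SS on high salt replicate 2 was that of miR-423-3p. The 8 DESeq2 calls included miR-n6, a rare name (mean 0.98 nRPM) given a log2 difference of 21.8, beside 0.67 in limma.

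**Figure D1:**
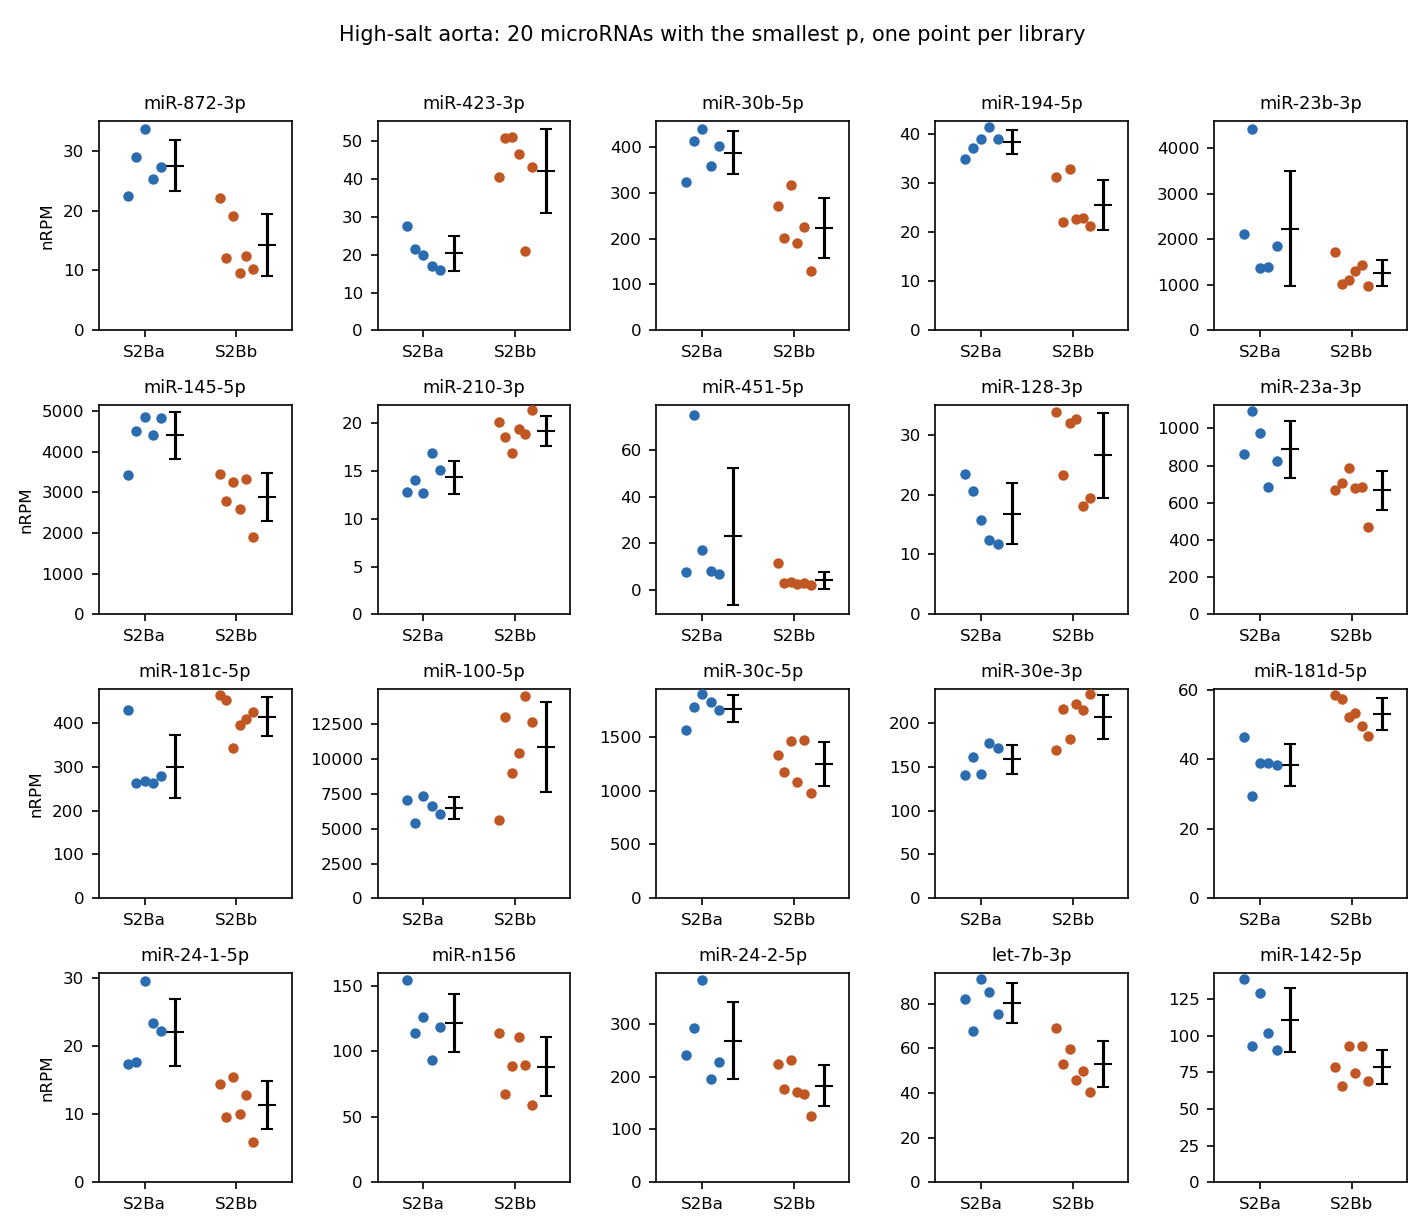
Level in nRPM (linear axes) of the 20 leading microRNAs in each S2Ba (blue, 5) and S2Bb (orange, 6) library on high salt, with the mean and SD as bars. Groups do not overlap for 6 of the 20, which choosing names by their p favours, beside 15 of all 484 (3.1%). One of the 6 is miR-194-5p, where S2Ba lies at 34.9 to 41.5 nRPM and S2Bb at 21.2 to 32.8 nRPM, while single libraries stand far out for miR-451-5p and miR-23b-3p.

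Members of the miR-30 family, whose abundant strands share a seed, are known for restraining connective tissue growth factor in rat heart. Of the 11 tested 0 were called, 3 were lower and 1 higher at an unadjusted p under 0.05, beside 5.99% and 3.1% of all names, and 9 had a negative difference of any size, beside 47.7% of all names. The level of miR-30b-5p was 322, 412, 439.6, 359 and 401 nRPM in S2Ba replicates 1, 3, 4, 5 and 6, and ran from 130.2 to 318 with a median of 213 nRPM in S2Bb. All S2Bb libraries lay below all S2Ba libraries. The difference was -0.84 ± 0.25 (SE) on the log2 scale, with an adjusted p of 0.233 in limma and an exact two-sided permutation p of 0.00433, the smallest that the 462 splits of 5 and 6 libraries allow. Groups that do not overlap always give this value. Permutation p here and below are not adjusted for the choice of names by their p, so they add no support. MiR-30c-5p was at 1561, 1778, 1892, 1820.1 and 1748 nRPM in S2Ba and from 976 to 1469 with a median of 1252 nRPM in S2Bb. Here too the groups did not overlap, and the difference was -0.51 ± 0.18 (SE), adjusted p 0.302 in limma. The passenger strand miR-30c-1-3p gave -0.62 ± 0.24 (SE), from 7.08 ± 1.19 nRPM (SD, n = 5) in S2Ba and 4.40 ± 1.46 nRPM (SD, n = 6) in S2Bb. MiR-30e-3p went the other way, with 158 ± 16.8 nRPM (SD, n = 5) in S2Ba and 206 ± 24.9 nRPM (SD, n = 6) in S2Bb, a difference of 0.38 ± 0.14 (SE). The most abundant members, miR-30a-5p and miR-30d-5p, had differences of -0.16 ± 0.15 (SE) and -0.27 ± 0.15 (SE). The median over the family was -0.21, beside 0.02 over all names.

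MiR-872-3p had the smallest p of the leading names. Its level was 22.4, 28.9, 33.7, 25.3 and 27.3 nRPM in S2Ba and from 9.55 to 22.1 with a median of 12.3 nRPM in S2Bb. The highest S2Bb library, replicate 1, was just under the lowest S2Ba library, also replicate 1. The difference was -0.95 ± 0.28 (SE) (95% interval -1.51 to -0.39), adjusted p 0.233 in limma. Across the 32 libraries miR-872-3p and miR-30b-5p were each other's closest profiles, with a Pearson r of 0.86 of the log2 levels. That value is a description over libraries that share strain, diet and depth.

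MiR-194-5p, which is made with miR-192 and is plentiful in liver, gut and kidney, separated the strains completely. It stood at 34.9, 37.1, 38.9, 41.5 and 38.9 nRPM in S2Ba and ran from 21.2 to 32.8 with a median of 22.8 nRPM in S2Bb. The S2Ba values were tightly grouped and all above those of S2Bb, of which replicates 1 and 3 came closest. The difference of -0.59 ± 0.18 (SE) had an adjusted p of 0.237 in limma and an unadjusted exact permutation p of 0.00433, which the lack of overlap fixes. Its partner miR-192-5p was at 436 ± 68.5 nRPM (SD, n = 5) in S2Ba and 378 ± 62.5 nRPM (SD, n = 6) in S2Bb, a difference of -0.21 ± 0.18 (SE). The hepatocyte microRNA miR-122-5p reached at most 0.402 nRPM in any of the 11 libraries, and the summed liver list overlapped between S2Ba (383 to 532 nRPM) and S2Bb (336 to 510 nRPM).

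The miR-23/27/24 clusters are known for roles in angiogenesis and in endothelial and muscle cells. All 9 tested members had a negative difference as deposited, with total-read scaling and with RLE factors, beside 47.7% of all names as deposited, and 4 were lower at an unadjusted p under 0.05, beside 5.99%. The list was drawn up after the values had been seen, so these counts support nothing. Its median was -0.17, and 0 members were called. MiR-24-1-5p, the passenger strand of miR-24 from chromosome 17, was at 17.4, 17.7, 29.5, 23.4 and 22.2 nRPM in S2Ba and from 5.996 to 15.5 with a median of 11.5 nRPM in S2Bb. The groups did not overlap, and the difference was -0.92 ± 0.35 (SE), adjusted p 0.341 in limma. MiR-24-2-5p, the passenger strand from the chromosome 19 cluster, was at 240.3, 292, 382, 195 and 227 nRPM in S2Ba and from 126 to 231 with a median of 174 nRPM in S2Bb, which overlap.

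The abundant guide strands miR-24-3p, miR-27a-3p and miR-27b-3p were nearer to 0. MiR-24-3p gave -0.17 ± 0.17 (SE), miR-27a-3p -0.16 ± 0.18 (SE) and miR-27b-3p, the most abundant of them, -0.08 ± 0.14 (SE). MiR-23a-3p was at 861, 1092, 974, 687 and 824 nRPM in S2Ba and from 468 to 789 with a median of 683 nRPM in S2Bb, a difference of -0.41 ± 0.14 (SE). MiR-23b-3p was at 2116, 4418, 1367, 1382 and 1861 nRPM in S2Ba and from 981 to 1731 with a median of 1206 nRPM in S2Bb. S2Ba replicate 3, the library with the most red blood cell signal, was far above the rest. With it the difference was -0.70 ± 0.22 (SE), and without it -0.42, with an adjusted p of 0.716 in limma.

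Among the smooth muscle microRNAs miR-145-5p had a negative difference and the other 3 tested had positive ones. MiR-145-5p was at 3424, 4516, 4838, 4399 and 4827 nRPM in S2Ba and from 1899 to 3437 with a median of 3016 nRPM in S2Bb. Only S2Ba replicate 1 fell into the S2Bb range, just under its highest library. The difference was -0.63 ± 0.21 (SE) (95% interval -1.06 to -0.20), adjusted p 0.302 in limma, exact permutation p 0.00866. The other strand of the same hairpin, miR-145-3p, was at 2239 ± 401 nRPM (SD, n = 5) in S2Ba and 2669 ± 538 nRPM (SD, n = 6) in S2Bb, a difference of 0.24 ± 0.23 (SE). MiR-143-3p differed by 0.12 ± 0.20 (SE) and miR-143-5p by 0.17 ± 0.14 (SE). Of the 4 tested, 0 were called, and the median was 0.15. At an unadjusted p under 0.05, 1 was lower, beside 5.99% of all names.

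MiR-210-3p, the microRNA that hypoxia-inducible factor switches on, was higher in S2Bb by its values. It was at 12.8, 14.04, 12.7, 16.9 and 15.1 nRPM in S2Ba and from 16.8 to 21.4 with a median of 19.1 nRPM in S2Bb. S2Ba replicate 5 and S2Bb replicate 3 met at the boundary, and all other S2Bb libraries were above all S2Ba libraries. The difference was 0.40 ± 0.14 (SE), adjusted p 0.302 in limma, exact permutation p 0.00866. With total-read scaling its unadjusted p no longer fell under 0.05.

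MiR-100-5p, a microRNA known to restrain mTOR, was the most abundant of the leading names. It was at 7055, 5372, 7301, 6649 and 6063 nRPM in S2Ba and 5609, 12978, 8952, 10429.7, 14515 and 12638 nRPM in S2Bb replicates 1 to 6. In S2Bb 5 of 6 libraries lay above the whole S2Ba range, and replicate 1 lay inside it. The difference was 0.69 ± 0.25 (SE) (95% interval 0.19 to 1.19), adjusted p 0.302 in limma. Its relatives miR-99a-5p and miR-99b-5p differed by 0.20 ± 0.17 (SE) and 0.18 ± 0.24 (SE), and miR-125b-5p, which is encoded near miR-100, by 0.26 ± 0.23 (SE). Over this family list, which was drawn up after the values had been seen, 9 of 11 differences were positive as deposited and 8 with total-read scaling and RLE factors, while 47.7% of all names were negative, 0 were called, and the median was 0.20. SS rats on high salt ran from 9265 to 15942 nRPM for miR-100-5p, above the S2Ba range in every library. On normal salt SS (5924 to 15282 nRPM) and S2Ba (4305 to 9590 nRPM) overlapped. The comparison of SS with S2Ba was not tested here.

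Members of the miR-181 family are known for setting antigen receptor and NF-kappaB signalling. MiR-181c-5p was at 428, 262, 268, 263 and 279.6 nRPM in S2Ba and from 341 to 464 with a median of 417 nRPM in S2Bb. S2Ba replicate 1 stood alone within the S2Bb range. The difference was 0.48 ± 0.17 (SE), adjusted p 0.302 in limma. MiR-181d-5p was at 46.3, 29.3, 38.8, 38.9 and 38.4 nRPM in S2Ba and from 46.6 to 58.6 with a median of 52.8 nRPM in S2Bb, without overlap but with S2Ba replicate 1 and S2Bb replicate 6 almost level. The abundant miR-181a-5p and miR-181b-5p, from other chromosomes, had differences of -0.03 ± 0.18 (SE) and 0.03 ± 0.16 (SE). The list of this family was drawn up after the values had been seen. Of 8 members tested 2 were higher at an unadjusted p under 0.05 as deposited, beside 3.1% of all names, and 0 with total-read scaling. Without S2Ba replicate 3 and S2Bb replicate 1 it was 1, and miR-181d-5p had an unadjusted p of 0.083 in limma.

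MiR-423-3p had the largest positive difference of the leading names. It was at 27.6, 21.6, 19.8, 16.9 and 16.03 nRPM in S2Ba and 40.6, 50.8, 51.1, 46.5, 21.1 and 43.2 nRPM in S2Bb replicates 1 to 6. S2Bb replicate 5 fell within the S2Ba range, and the other 5 were above it. The difference was 0.99 ± 0.29 (SE) (95% interval 0.40 to 1.58), adjusted p 0.233 in limma, exact permutation p 0.013. MiR-128-3p, best known from brain, was at 23.5, 20.6, 15.7, 12.4 and 11.8 nRPM in S2Ba and from 18.1 to 33.8 with a median of 27.6 nRPM in S2Bb, with S2Ba replicates 1 and 3 inside the S2Bb range. Of the 5 neuron markers tested it was the 1 with an unadjusted p under 0.05, beside 3.1% of all names that were higher at that level. The summed list spanned 51.3 to 103 nRPM in S2Ba and 61.9 to 128 nRPM in S2Bb.

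MiR-451-5p, the red blood cell microRNA, had the largest difference of the 484 names tested. It was at 7.72, 75.01, 17.1, 8.06 and 6.72 nRPM in S2Ba and 11.4, 3.02, 3.32, 2.26, 2.77 and 1.96 nRPM in S2Bb replicates 1 to 6. S2Bb replicate 1 lay inside the S2Ba range and the other 5 below it. The difference was -1.78 ± 0.61 (SE) (95% interval -3.03 to -0.53), adjusted p 0.302 in limma. MiR-144-3p and miR-144-5p, made from the same transcript as miR-451, had differences of -0.88 ± 0.40 (SE) and -0.84 ± 0.36 (SE). Their exact permutation p were 0.0866 and 0.0649. All 3 tested members were lower at an unadjusted p under 0.05 in limma, beside 5.99% of all names, with a median of -0.88, beside 0.02 over all names. Without S2Ba replicate 3 and S2Bb replicate 1, the library with the most of this signal in each group, 1 of 3 was and the median was -0.63. The summed level spanned 7.83 to 92.0 nRPM in S2Ba and 2.61 to 14.7 nRPM in S2Bb, and its part in the other differences was not tested. Without those 2 libraries 0 of 484 names were called, and the 20 leading differences kept their signs, which choosing names by p in the same data favours.

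Markers of blood-derived cells overlapped. MiR-142-5p was at 139, 92.9, 129, 102 and 90.2 nRPM in S2Ba and from 65.5 to 92.9 with a median of 76.4 nRPM in S2Bb, a difference of -0.47 ± 0.20 (SE). The other strand, miR-142-3p, differed by -0.20 ± 0.23 (SE), miR-150-5p of lymphocytes by 0.06 ± 0.29 (SE) and miR-223-3p of myeloid cells by 0.24 ± 0.18 (SE). Of 5 tested 1 was lower at an unadjusted p under 0.05, beside 5.99% of all names. The summed list spanned 271 to 494 nRPM in S2Ba and 275 to 334 nRPM in S2Bb. Endothelial miR-126a-3p and miR-126a-5p had differences of 0.08 ± 0.19 (SE) and -0.22 ± 0.26 (SE). The fat markers, miR-378a-3p foremost, summed to 991 to 1388 nRPM in S2Ba and 1077 to 1745 nRPM in S2Bb, with 0 of 3 at an unadjusted p under 0.05. Striated muscle markers summed to 446 to 758 nRPM in S2Ba and 582 to 672 nRPM in S2Bb, nearly all of it miR-133a-3p, with 0 of 4. Epithelial markers summed to 40.2 to 56.2 nRPM and 39.7 to 60.4 nRPM, with 0 of 6.

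Vascular inflammation is named in the study's title. Of 17 inflammation microRNAs tested 0 were called, and the median was -0.07. At an unadjusted p under 0.05, 1 was lower, beside 5.99% of all names. That member was miR-132-3p, which CREB and angiotensin II signalling induce in vessels, at 9.49, 22.3, 15.1, 3.82 and 5.51 nRPM in S2Ba and from 1.85 to 9.57 with a median of 4.94 nRPM in S2Bb. The ranges overlapped widely, the difference was -0.75 ± 0.34 (SE), and the exact permutation p was 0.156. MiR-21-5p, the most studied inflammatory and fibrotic microRNA of the vessel wall, was at 4196 ± 1125 nRPM (SD, n = 5) in S2Ba and 3768 ± 912 nRPM (SD, n = 6) in S2Bb, a difference of -0.15 ± 0.23 (SE). MiR-146a-5p, a feedback inhibitor of NF-kappaB signalling, gave -0.35 ± 0.25 (SE), and miR-221-3p, which drives smooth muscle growth, -0.05 ± 0.16 (SE). Of 9 fibrosis microRNAs 1, miR-30c-5p, was lower at an unadjusted p under 0.05, beside 5.99% of all names. MiR-29b-3p, an inhibitor of collagen genes, gave -0.05 ± 0.22 (SE).

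**Figure D2:**
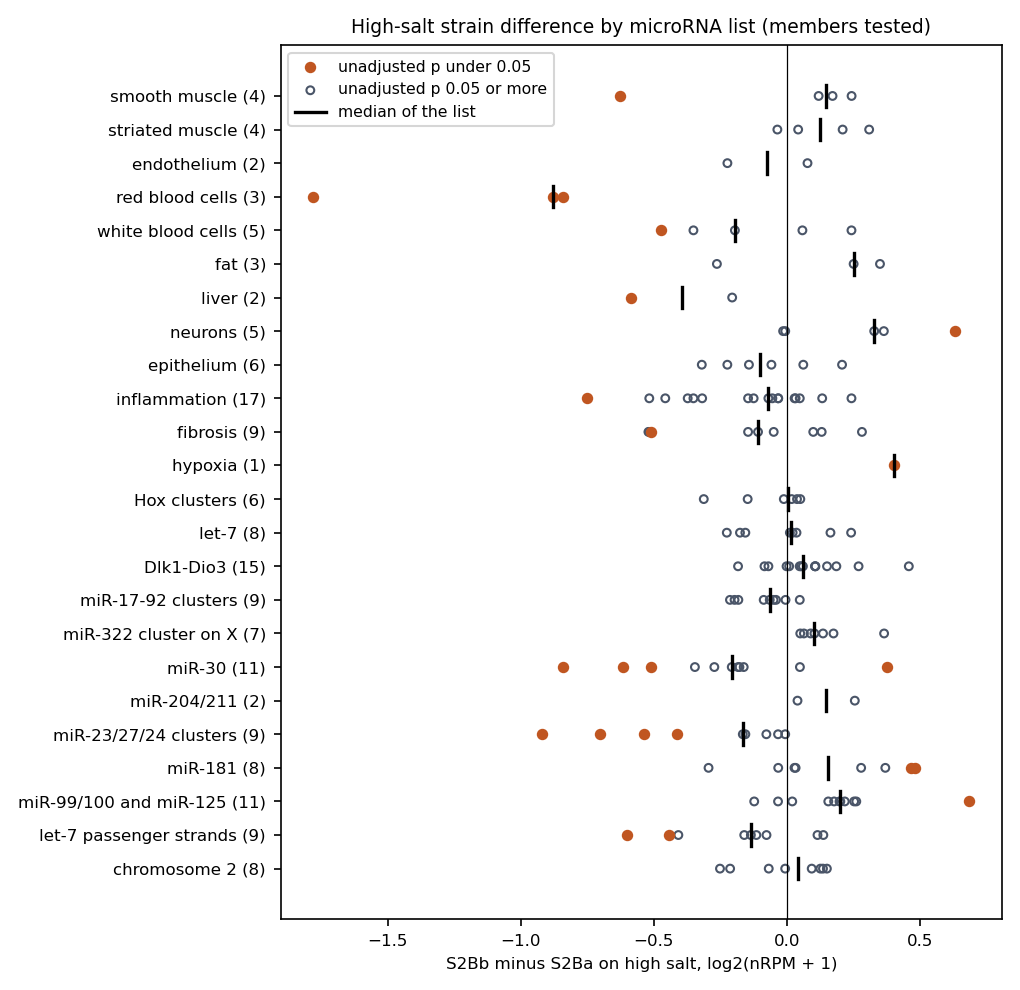
Each point is the difference S2Bb minus S2Ba on high salt, in log2(nRPM + 1), of 1 tested member of the list named on the vertical axis, filled where the unadjusted p is under 0.05, and the vertical bar is the list's median. The 3 red blood cell markers and all 9 members of the miR-23/27/24 clusters lie left of 0, 4 of those 9 filled, the median of the chromosome 2 list is 0.04, and none of the points was called.

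The Hox cluster microRNAs, the let-7 guide strands and the large developmental clusters held 0 members with an unadjusted p under 0.05. In the Hox clusters miR-10a-5p differed by 0.05 ± 0.15 (SE) and miR-10b-5p by -0.01 ± 0.20 (SE). Among the let-7 guide strands, which hold back growth genes, let-7c-5p differed by 0.01 ± 0.15 (SE), let-7f-5p by 0.24 ± 0.19 (SE) and let-7b-5p by -0.23 ± 0.17 (SE). Let-7b-5p did not overlap, with S2Ba from 1151 to 1297 nRPM and S2Bb from 917 to 1127 nRPM. Its passenger strand let-7b-3p was among the leading names, at 82.2, 67.8, 91.00, 85.4 and 75.2 nRPM in S2Ba and from 40.5 to 69.1 with a median of 51.6 nRPM in S2Bb, a difference of -0.60 ± 0.25 (SE). The list of let-7 passenger strands was drawn up after the values had been seen. Of 9 tested 2, let-7b-3p and let-7e-3p, were lower at an unadjusted p under 0.05, beside 5.99% of all names. With total-read scaling 1 was lower at that level, as was 1 without S2Ba replicate 3 and S2Bb replicate 1. In the imprinted Dlk1-Dio3 cluster 0 of 15, in the miR-17-92 clusters 0 of 9 and in the X-linked miR-322 cluster 0 of 7 reached that level, with medians of 0.06, -0.06 and 0.10. Without S2Ba replicate 3 and S2Bb replicate 1 these 3 medians were -0.04, 0.03 and -0.08, so their direction rests on those libraries.

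MicroRNAs encoded on chromosome 2, where the strains differ by design, held 0 calls. The table holds 16 names that RefSeq places on chromosome 2 alone, and 8 of them were tested. Names with a further copy elsewhere or without a RefSeq position are not in this list. Of these 0 had an unadjusted p under 0.05, and the median difference was 0.04, or -0.07 without S2Ba replicate 3 and S2Bb replicate 1. MiR-16-5p (chr2:155555343-155555364 in GRCr8), a widely expressed brake on the cell cycle, was at 3659, 2489, 2771, 2418 and 2524 nRPM in S2Ba and from 2027 to 2658 with a median of 2379 nRPM in S2Bb. The ranges overlapped, and the difference was -0.21 ± 0.15 (SE). MiR-186-5p gave -0.07 ± 0.17 (SE), miR-15b-5p, from the same locus as miR-16, 0.15 ± 0.21 (SE), miR-92b-3p -0.01 ± 0.28 (SE) and miR-582-3p 0.09 ± 0.23 (SE). Which of these positions fall inside either segment was not analysed here.

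Groups did not overlap for 15 of the 484 names (3.1%), 7 higher (1.45%) and 8 lower (1.65%) in S2Bb. Beside miR-872-3p, miR-30b-5p, miR-30c-5p, miR-194-5p, miR-24-1-5p and miR-181d-5p these were miR-191a-5p, miR-342-3p, let-7b-5p, miR-101a-3p, miR-101b-3p, miR-340-5p, miR-874-3p, miR-n45 and miR-n104. These and miR-224-5p are named after their values had been seen. MiR-191a-5p, one of the abundant ones, ran from 8398 to 9488 nRPM in S2Ba and from 5450.3 to 7952 nRPM in S2Bb, a difference of -0.42 ± 0.19 (SE). MiR-101a-3p and miR-101b-3p, of one family, ran from 1323 to 1551 and from 118 to 135 nRPM in S2Ba, and from 1589 to 1948 and from 136 to 185 nRPM in S2Bb. Their differences were 0.31 ± 0.25 (SE) and 0.35 ± 0.22 (SE). MiR-224-5p, too rare to be a leading name, had the smallest p of all, at 3.66, 1.07, 1.99, 2.46 and 2.13 nRPM in S2Ba and from 2.93 to 6.23 with a median of 4.34 nRPM in S2Bb, a difference of 0.73 ± 0.21 (SE), adjusted p 0.233 in limma. MiR-n156, among the leading names, was at 155, 114, 126, 93.7 and 119 nRPM in S2Ba and from 58.9 to 114 with a median of 89.3 nRPM in S2Bb, with overlap.

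The same strains on normal salt gave 17 calls of 484 (3.51%), 10 higher (2.07%) and 7 lower (1.45%) in S2Bb. That count was 35 without SS on high salt replicate 2, where all 17 were among the calls, and 8 with the identical column counted as S2Ba. Leaving out 1 normal-salt library at a time gave 9 to 24 calls. It was 9 without S2Ba replicate 1 and without S2Bb replicate 2 or 3, and 11 without S2Ba replicate 6 and without S2Bb replicate 5. The diet comparisons share no libraries, but the variance of the fit is common to them. Of the 484 names 333 (68.8%) had the same sign on both diets, and the Pearson r of the differences across names was 0.53 (Spearman rho 0.49), which describes names that are not independent of each other. Of the 20 leading high-salt names 18 had the same sign on normal salt, and 8 had an unadjusted p under 0.05 there, beside 78 of all names (16.1%, 9.3% higher and 6.82% lower). The exceptions in sign were miR-145-5p, at 0.06 on normal salt (below 0 without S2Ba replicate 1 or S2Bb replicate 5), and miR-30e-3p, at -0.09.

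**Figure D3:**
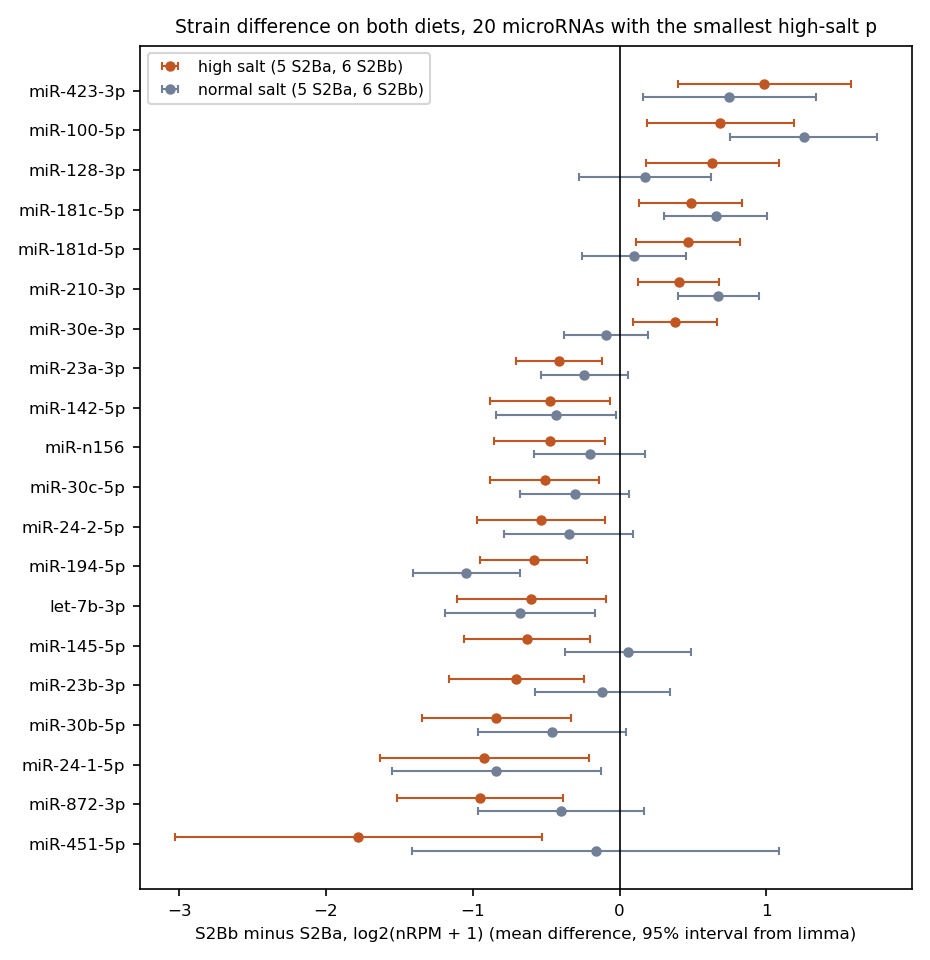
Difference S2Bb minus S2Ba in log2(nRPM + 1) for the 20 leading microRNAs on high salt (orange) and normal salt (grey), each with its 95% interval from limma. On high salt the leading names were chosen by their p, so their orange intervals leave out 0 by choice, while the grey values of miR-194-5p, miR-100-5p, miR-210-3p and miR-181c-5p were called.

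Among the leading names, miR-194-5p, miR-100-5p, miR-210-3p and miR-181c-5p were called on normal salt. There miR-194-5p was lower in S2Bb, with 51.1 ± 7.93 nRPM (SD, n = 5) in S2Ba and 24.7 ± 6.16 nRPM (SD, n = 6) in S2Bb, a difference of -1.04 ± 0.18 (SE), adjusted p 0.000809 in limma. MiR-100-5p was higher, with 6895 ± 2308 nRPM (SD, n = 5) in S2Ba and 16107 ± 3934 nRPM (SD, n = 6) in S2Bb, a difference of 1.25 ± 0.25 (SE), adjusted p 0.00238. MiR-210-3p was higher, with 19.1 ± 0.944 nRPM (SD, n = 5) in S2Ba and 31.1 ± 2.79 nRPM (SD, n = 6) in S2Bb, a difference of 0.67 ± 0.14 (SE), adjusted p 0.00264. MiR-181c-5p was higher by 0.65 ± 0.17 (SE), adjusted p 0.0249. In all 4 the normal-salt groups did not overlap, as in 13 of the 17 normal-salt calls, which choosing names by p favours. The share over all names was not counted on normal salt. In all 4 the high-salt difference had the same sign and a smaller size. MiR-194-5p, miR-100-5p and miR-210-3p were called whichever of the 11 normal-salt libraries was left out, and with the identical column counted as S2Ba. MiR-181c-5p was not called without S2Ba replicate 2, 3 or 5 or S2Bb replicate 3 or 5. For none of the 4 was the change in the strain difference with diet called.

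Of the 17 names called on normal salt, 14 had the same sign on high salt and all 17 were smaller in size there, beside 55.8% of all names, a share that choosing names by their normal-salt values raises. MiR-204-5p, which acts in contractile smooth muscle and shares its seed with miR-211-5p, was at 222 ± 44.5 nRPM (SD, n = 5) in S2Ba and 439 ± 73.4 nRPM (SD, n = 6) in S2Bb on normal salt, a difference of 0.99 ± 0.20 (SE). On high salt it was at 177 ± 45.8 nRPM (SD, n = 5) in S2Ba and 207 ± 34.8 nRPM (SD, n = 6) in S2Bb, a difference of 0.26 ± 0.20 (SE). MiR-143-5p differed by 0.77 ± 0.14 (SE) on normal salt and 0.17 ± 0.14 (SE) on high salt. MiR-138-5p, known from neurons, differed by -1.54 ± 0.39 (SE) on normal and -0.01 ± 0.39 (SE) on high salt. MiR-204-5p and miR-143-5p were called whichever normal-salt library was left out, and miR-138-5p was not called without S2Ba replicate 1 or S2Bb replicate 2 or 3. With the identical column counted as S2Ba neither miR-143-5p nor miR-138-5p was called. The signs turned for miR-221-3p, miR-152-5p and miR-n79. For miR-152-5p the difference was 0.97 ± 0.28 (SE) on normal salt and -0.28 ± 0.28 (SE) on high salt. S2Ba on normal salt replicate 1 was at 4.09 nRPM for miR-152-5p and the other 4 at 13.7 to 16.4 nRPM, and without it the normal-salt difference was 0.63, adjusted p 0.207 in limma. MiR-152-5p was called in 2 of the 11 fits that left out a normal-salt library, and miR-221-3p and miR-n79 were each called in 4 of them. None of them was called with the identical column counted as S2Ba.

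The test of the difference between the diets' strain differences called 0 of 484 (0%) in limma, with a smallest adjusted p of 0.782 and 20 names (4.13%) at an unadjusted p under 0.05, 5 of them positive (1.03%) and 15 negative (3.1%). The count was 0 with edgeR, with 27 names at an unadjusted p under 0.05, and 1 with DESeq2. That DESeq2 call was miR-n105, a rare name (mean 1.53 nRPM) given a log2 difference of -19.9. For miR-152-5p the high-salt difference minus the normal-salt difference was -1.25 ± 0.40 (SE, 95% interval -2.06 to -0.44), for miR-143-5p -0.60 ± 0.20 (SE, 95% interval -1.01 to -0.19) and for miR-204-5p -0.73 ± 0.28 (SE, 95% interval -1.31 to -0.15). Without S2Ba on normal salt replicate 1 it was -0.91 for miR-152-5p. For miR-145-5p it was -0.69 ± 0.30 (SE, 95% interval -1.29 to -0.08) and for miR-30e-3p 0.47 ± 0.20 (SE, 95% interval 0.06 to 0.88). These 5 had an unadjusted p under 0.05 and were not called. The first 3 were chosen by their normal-salt p and the other 2 by their high-salt p, and those values enter the test, so these p are no independent evidence.

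**Figure D4:**
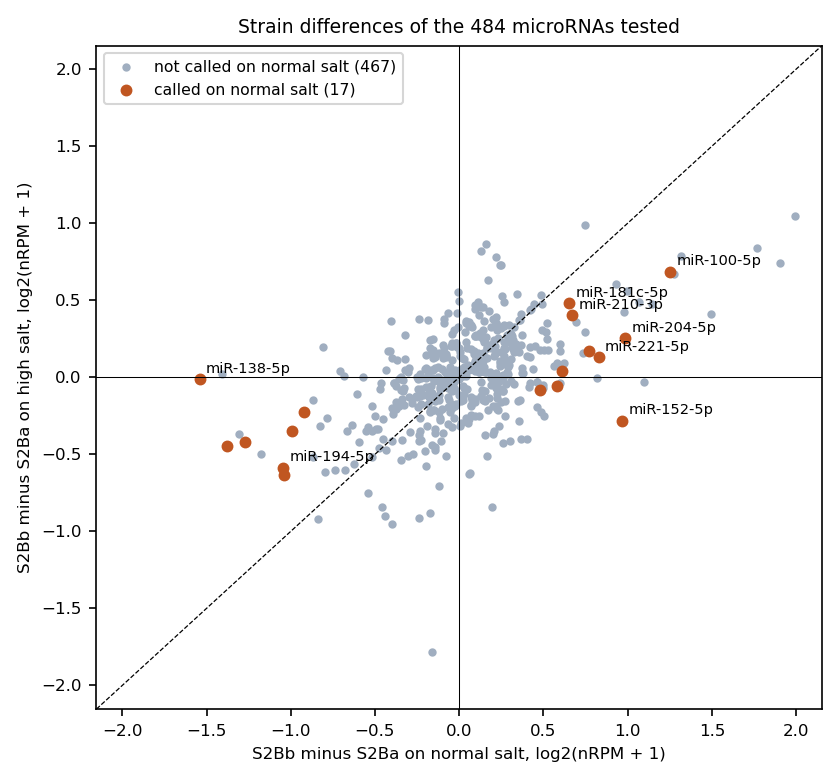
Each point is 1 of 484 microRNAs, with the difference S2Bb minus S2Ba in log2(nRPM + 1) on normal salt on the horizontal axis and on high salt on the vertical axis, and the dashed line marks equal differences. The 17 names called on normal salt (orange) lie nearer to 0 on the high-salt axis than on the normal-salt axis, and 14 of them keep their sign.

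Sample titles carry animal numbers whose meaning is not stated. On normal salt the numbers of all S2Bb animals lie below those of all S2Ba animals, so strain and number block cannot be told apart there. On high salt 4 of 5 S2Ba and 3 of 6 S2Bb animals have numbers in the highest block. Within that block 0 of 484 names were called and 54 had an unadjusted p under 0.05, and the 20 leading differences kept their signs. The names were chosen by p with these libraries included, which favours kept signs.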

How the data were processed

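Total RNA of frozen aorta pieces was made into small RNA libraries and sequenced on an Illumina HiSeq, per the labels' protocols. The tools STAR 2.3.1, edgeR 3.6.8, R 3.2.3, bcl2fastq 1.8.4 and FastQC appear in the submitters' processing notes, and what each did, the genome build and the scaling were not given in the sources used here. A single table of normalized signal (nRPM), 835 names by 34 columns, was deposited by the authors. Every value (100%) was a whole multiple of its column's smallest step, within 1e-06, which gave back the reads as whole numbers. SS on high salt replicate 3 and S2Ba on high salt replicate 2 were not analysed here. SS on normal salt replicate 1 and S2Ba on normal salt replicate 4 hold identical values and were left out, which left 32 libraries of 2.31 to 42.4 M reads.

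Names with at least 1 nRPM in at least 5 of the 32 libraries were tested, 484 in all (275 miRBase names and 209 miR-n names), on log2(value + 1). All 6 groups were fitted in limma 3.58.1 (R 4.3.3) with an intensity trend, and p-values were adjusted by Benjamini-Hochberg over all names. An edgeR test had been planned for raw counts only. It was run on the recovered reads as an alternative (edgeR 4.0.16), as was DESeq2 1.42.0 (scipy 1.17.1 for exact permutation tests). The limma fit of the high-salt comparison was run on simulated counts that gave all names the same dispersion. The other fits were not run on them. Named were the calls, then the smallest p with a mean of at least 10 nRPM up to 20 names, the 2 most abundant members of each list and the 5 most abundant on chromosome 2. The comparison, the lists and the alternatives were chosen with earlier results of these data known. The lists of the miR-23/27/24 clusters, miR-181, miR-99/100 and miR-125, and let-7 passenger strands were added after these values had been seen. Where nothing states that samples came from separate litters, p-values measure the spread between these samples. Sequences and positions are from RefSeq (GRCr8), which gave a chromosome for 248 of the 275 miRBase names tested.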

Additional observations from a re-analysis of the deposited data

Results flagged for a closer look

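In 17 of 194 groups of values examined (8.76%), where chance gives about 1 in 20, the highest or lowest library stood far from the others by Dixon's criterion on the log2 scale. In S2Ba on high salt replicate 1 did so for 5 microRNAs. It was at 3424 nRPM for miR-145-5p (others 4399 to 4838), 428 for miR-181c-5p (262 to 280), 87.5 for miR-365-3p (63.0 to 68.3), 5434 for miR-199a-3p (3857 to 4049.7) and 63.1 for miR-434-3p (37.7 to 40.9).

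In S2Bb on high salt replicate 1 was at 11.4 nRPM for miR-451-5p (others 1.96 to 3.32) and 133 for miR-146a-5p (174 to 199). Replicate 5 was at 21.1 nRPM for miR-423-3p (40.6 to 51.1), replicate 6 at 468 for miR-23a-3p (670 to 789), and replicate 2 at 11.5 for miR-n255 (6.73 to 7.52).

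On normal salt S2Bb replicate 6 was at 49.7 nRPM for miR-423-3p (21.03 to 28.7) and 2335 for miR-126a-5p (1162 to 1394), replicate 5 at 59.3 for miR-451-5p (5.07 to 7.05), and replicate 2 at 269 for miR-221-3p (156 to 190). S2Ba replicate 2 was at 1532 nRPM for miR-30c-5p (1999 to 2103), and replicate 1 at 39.3 for miR-138-5p (6.998 to 10.6) and 4.09 for miR-152-5p (13.7 to 16.4).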

How the results depend on the processing

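Over 40 alternatives no difference of the 20 leading microRNAs changed sign in 799 values, of which 33 became calls. Alternatives that changed only other libraries, the filter or the set of names could not alter these differences, only their p. The names were also chosen by p in the same libraries, so the kept signs are no independent evidence. On high salt 36 alternatives called 0 names. The exceptions were DESeq2 with 8, limma-voom with sample weights with 32, the fit of the compared groups alone with 9 and the fit without SS on high salt replicate 2 with 1. MiR-423-3p was called by all 4, and miR-30b-5p, miR-194-5p and miR-872-3p by 3. The rare miR-n6 was called by DESeq2 alone, at a log2 difference of 21.8. Leaving out 1 high-salt library at a time called 0 on high salt, with 27 to 55 names at an unadjusted p under 0.05, and 16 to 21 on normal salt. Leaving out 1 normal-salt library, an alternative added after the data had been seen, called 0 on high salt and 9 to 24 on normal salt, and both called 0 for the difference between diets. On normal salt the 17 calls became 26 with edgeR, 36 with DESeq2, 37 with limma-voom, 35 without SS on high salt replicate 2 and 8 with the identical column counted as S2Ba. For the difference between diets DESeq2 called 1, the rare miR-n105 at a log2 difference of -19.9, and all other alternatives 0. The cause of these shifts was not tested. With total-read scaling and RLE factors the median high-salt difference over all names was -0.02 and -0.01. No paired analysis was possible because the labels give no replicate numbers. Depth limits rare names: 3 reads correspond to 0.102 to 0.203 nRPM in the compared libraries, for counting error only.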
